A study of Homo sapiens with 8 samples.

Results

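The genes described are 40 markers of proliferation and DNA replication, chosen by name as textbook genes of cell division. Like the other gene lists and the motifs, they were chosen with earlier results of these data known. The 40 genes were matched to all probe sets that carry a member as their single gene symbol. They were divided into 19 S-phase genes and 21 mitotic genes, and they were measured by 83 of the 54675 probe sets of the Affymetrix HG-U133 Plus 2.0 array. Expression was measured on 8 arrays of total RNA from cultures of 2 human cancer cell lines, labelled SUP-B8 and NALM-6. The groups are SUP-B8 with GSK126, SUP-B8 with DMSO, NALM-6 with GSK126 and NALM-6 with DMSO, each with 2 biological replicates, and all cultures had been treated for 72 hours. GSK126, given at 0.5 uM, inhibits EZH2, the methyltransferase of Polycomb repressive complex 2, and DMSO is its vehicle. The study's title names an EZH2 substitution and excess trimethylation of lysine 27 of histone H3, but the labels give no EZH2 genotype for either line. With 1 line behind each label, the EZH2 genotype and every other difference between the lines cannot be told apart.

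The labelled lines were checked against B-cell markers. Of the 9 B-cell markers measured, 9 lay above the array medians on all arrays labelled SUP-B8, and their mean was 12.30 to 12.38 on the log2 scale. On arrays labelled NALM-6, 6 of 9 did, with means of 9.96 to 10.10, and DNTT, VPREB1 and RAG1 lay below the medians. The NALM-6 line is usually reported to be a leukaemia of precursor B cells and to express DNTT, the terminal transferase, so the names SUP-B8 and NALM-6 stand here for the labels of the arrays. Of the markers of other cell types, 2 of 5 T-cell, 0 or 1 of 5 myeloid, 2 of 3 erythroid and 2 of 4 fibroblast genes lay above the medians in each group, with list means of 6.43 to 6.63, 6.53 to 6.80, 7.03 to 7.26 and 7.61 to 7.78, and their part in the results was not tested. Replicate arrays correlated at 0.9977 to 0.9982.

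Cells duplicate their chromosomes in S phase and separate them in mitosis, and each phase draws on its own set of transcripts. In G1, E2F transcription factors released from retinoblastoma proteins switch on cyclin E, the origin-licensing factors, the MCM helicase and the enzymes that supply nucleotides. Later, the MuvB complex with MYBL2 and then FOXM1 switches on the mitotic cyclins, kinases, spindle motors and centromere proteins, many through a CCAAT box and a cell cycle homology region near the start of the gene.

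All 40 genes were expressed well above the middle of each array. Each gene was represented by its probe set of highest mean. The 320 values of these probe sets all lay above the median of their array, with a range of 9.43 to 13.84 against medians of 7.18 to 7.24, so all 40 were among the 13161 genes tested. Values are the deposited log2 expression values, on which a difference of 1 is a doubling. A gene was called when its adjusted p from limma, adjusted over all genes tested, was under 0.05, and differences are given with their SE and n = 2 arrays per group.

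In arrays labelled NALM-6 the mitotic genes fell together under GSK126, while the S-phase genes moved both ways. Of the 21 mitotic genes, 16 fell and 0 rose, and the remaining 5 had differences of -0.16 to -0.13. Of the 19 S-phase genes, 3 rose, 3 fell and 13 did not pass the test. The median difference was -0.28 for the mitotic genes and -0.06 for the S-phase genes, beside 0.02 over all genes tested. Many other genes changed as well: 20.8% of all genes tested were called higher and 18.5% lower, against 3 and 19 of the 40 members, and the 19 became 12 without GSK126 replicate 2. Among the 4210 genes whose mean level lay within the range of the 40 members, 20.0% were called higher and 29.1% lower, with a median of -0.05. The S-phase counts, 3 higher and 3 lower of 19, lie below these shares and below those over all genes. They do not set the S-phase class apart. In RNA from whole cultures, fewer cells in a phase and less transcript per cell cannot be told apart.

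The means over each class show the same split array by array. The 21 mitotic genes averaged 11.64 and 11.62 on the GSK126 arrays labelled NALM-6, against 11.87 and 11.92 on the DMSO arrays. The 19 S-phase genes averaged 12.07 and 12.07 on the GSK126 arrays, against 12.02 and 12.06 on the DMSO arrays. Both pairs of groups were separate, the mitotic means by more than the S-phase means.

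**Figure D1:**
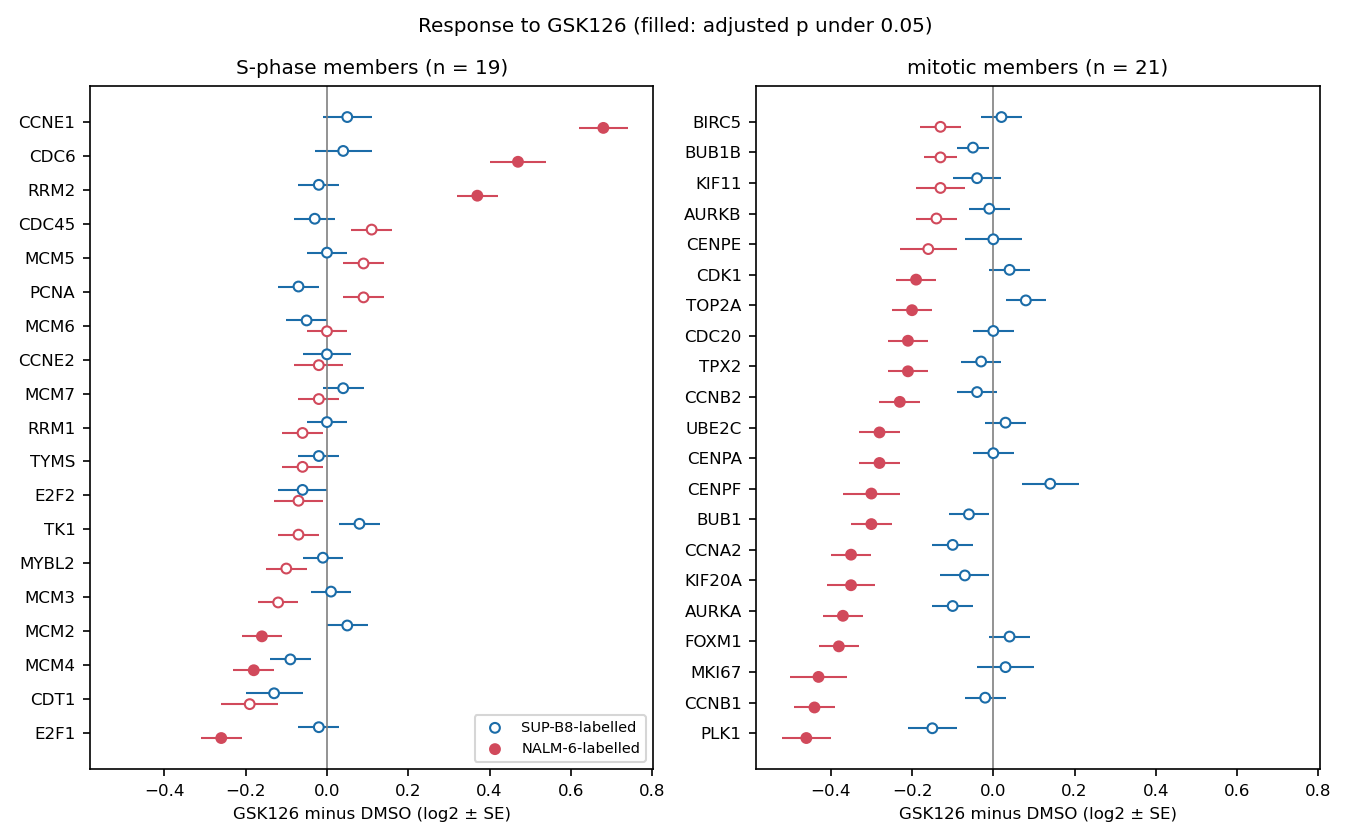
Difference between GSK126 and DMSO arrays (log2, horizontal axis, bars show the SE) for each S-phase gene (left) and each mitotic gene (right), in arrays labelled SUP-B8 and NALM-6. Filled points passed the test at an adjusted p under 0.05: in NALM-6 all 21 mitotic points lie left of 0 and 16 are filled, while 0 of the 40 SUP-B8 points are filled.

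Among the S-phase genes, the 3 that rose act in S-phase entry and nucleotide supply. CCNE1, the cyclin that activates CDK2 at the G1/S boundary, read 10.60 and 10.66 on GSK126 arrays labelled NALM-6, against 9.90 and 10.00 on DMSO arrays. It rose by 0.68 ± 0.06 (1.60-fold, adjusted p = 6.3e-05), the largest change of the 40 genes in either direction. CDC6, which loads the MCM helicase onto origins, read 11.36 and 11.43 with GSK126, against 10.87 and 10.98 with DMSO. Its difference was 0.47 ± 0.07 (1.38-fold, adjusted p = 0.00086). RRM2, the small subunit of ribonucleotide reductase, read 13.62 and 13.61 with GSK126, against 13.23 and 13.25 with DMSO, a rise of 0.37 ± 0.05 (1.30-fold, adjusted p = 0.000447). In all 3 genes both GSK126 arrays lay above both DMSO arrays. CCNE2, the second cyclin E gene, differed by -0.02 (adjusted p = 0.774), and RRM1, the large reductase subunit, by -0.06 (adjusted p = 0.379).

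The S-phase genes that fell were a transcription factor and members of the MCM helicase. E2F1, an activator of the G1/S genes, read 10.06 and 10.16 on GSK126 arrays, against 10.40 and 10.34 on DMSO arrays, and fell by 0.26 (SE 0.05, adjusted p = 0.00479). MCM4, a helicase subunit, read 12.36 and 12.26 with GSK126, against 12.50 and 12.48 with DMSO, a difference of -0.18 ± 0.05 (adjusted p = 0.0298). MCM2, another subunit, differed by -0.16 (adjusted p = 0.0413). The calls of MCM2 and MCM4 were lost when probe sets were not filtered and when all probe sets were fitted together. Both were also lost after renewed quantile normalization and when the 4 arrays labelled NALM-6 were fitted alone. That of MCM2 was lost with a replicate block as well (adjusted p = 0.0666). Both were lost without certain single NALM-6 arrays, among them GSK126 replicate 2, where MCM2 and MCM4 differed by -0.18 and -0.13. MCM2 has 1 probe set. In the fit of all probe sets, further MCM4 probe sets were called lower, at -0.23, -0.24 and -0.46 (adjusted p = 0.0344, 0.0269 and 0.0022). Another, at -0.16, was not (adjusted p = 0.361). The other 4 subunits, MCM3, MCM5, MCM6 and MCM7, had differences of -0.12 to 0.09 and did not pass the test.

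The rest of the S-phase genes did not pass. CDT1, the partner of CDC6 in licensing, read 12.02 and 11.99 with GSK126, against 12.19 and 12.20 with DMSO (difference -0.19, adjusted p = 0.0772). PCNA, the sliding clamp of the replicative polymerases, read 13.45 and 13.45 with GSK126, against 13.38 and 13.34 with DMSO (difference 0.09, adjusted p = 0.212). MYBL2, which links the G1/S and the mitotic programmes, read 11.51 and 11.53 with GSK126, against 11.61 and 11.62 with DMSO (difference -0.10, adjusted p = 0.16). The remaining genes were CDC45, a part of the active helicase, at 0.11; TYMS and TK1, enzymes of thymidylate supply, at -0.06 and -0.07; and E2F2, an E2F activator, at -0.07.

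The mitotic genes that fell covered every role in the list. Of CDK1 and its cyclins, 4 of 4 fell, although the call of CDK1 was lost with all probe sets fitted together (adjusted p = 0.063) and without either NALM-6 GSK126 replicate (adjusted p = 0.0508 and 0.0962). CCNB1, the B-type cyclin that drives entry into mitosis, read 12.02 and 12.00 on GSK126 arrays, against 12.42 and 12.47 on DMSO arrays, a difference of -0.44 ± 0.05 (0.738-fold, adjusted p = 0.000239). CCNA2, the cyclin of late S phase and G2, read 11.64 and 11.63 with GSK126, against 12.01 and 11.98 with DMSO (difference -0.35 ± 0.05, adjusted p = 0.000598). CCNB2 fell by 0.23 (adjusted p = 0.00652) and CDK1, the mitotic kinase itself, by 0.19 (adjusted p = 0.0142).

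Of the other mitotic kinases, 3 of 5 fell. PLK1, which acts at centrosomes, kinetochores and in cytokinesis, read 10.54 and 10.69 on GSK126 arrays, against 11.10 and 11.05 on DMSO arrays. Its difference of -0.46 ± 0.06 (0.728-fold, adjusted p = 0.000832) was the largest fall of the 40 genes. AURKA, the kinase of the spindle poles, read 11.94 and 11.92 with GSK126, against 12.27 and 12.34 with DMSO (difference -0.37 ± 0.05, adjusted p = 0.000755). BUB1, a kinase of the spindle checkpoint, fell by 0.30 (adjusted p = 0.00234). AURKB, the kinase of the chromosomal passenger complex, and BUB1B, a checkpoint protein, had differences of -0.14 and -0.13 and missed the threshold at adjusted p = 0.0706 and 0.0527.

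MKI67, which coats mitotic chromosomes and is the usual stain for cycling cells, read 11.08 and 11.06 on GSK126 arrays, against 11.42 and 11.58 on DMSO arrays. The difference was -0.43 ± 0.07 (0.742-fold, adjusted p = 0.00176) on its representing probe set. The other 3 probe sets of MKI67, all above the medians on all arrays, differed by -0.17, -0.07 and 0.05, so that the size of its fall rests on 1 of 4 probe sets. TOP2A, the topoisomerase that untangles sister chromatids, read 12.45 and 12.46 with GSK126, against 12.65 and 12.66 with DMSO (difference -0.20 ± 0.05, adjusted p = 0.0103). FOXM1, the transcription factor of the mitotic genes, read 10.75 and 10.71 with GSK126, against 11.10 and 11.12 with DMSO (difference -0.38 ± 0.05, adjusted p = 0.000499). In these genes too the groups did not overlap.

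Among the spindle, centromere and anaphase genes 6 of 9 fell. KIF20A, a motor of the central spindle, fell by 0.35 (adjusted p = 0.00196), TPX2, which activates AURKA on the spindle, by 0.21 (adjusted p = 0.0145), and KIF11, the motor that separates the poles, differed by -0.13 (adjusted p = 0.124). CENPF, a kinetochore protein, and CENPA, the histone H3 variant of centromeres, fell by 0.30 and 0.28 (adjusted p = 0.0077 and 0.00444). CENPE, a kinetochore motor, and BIRC5, the survivin subunit of the passenger complex, differed by -0.16 and -0.13 (adjusted p = 0.112 and 0.0768). UBE2C and CDC20, which work with the anaphase-promoting complex, fell by 0.28 and 0.21 (adjusted p = 0.00371 and 0.011). The calls of TPX2, CDC20, CENPF and TOP2A were lost without NALM-6 GSK126 replicate 2 (adjusted p = 0.0751, 0.0715, 0.0609 and 0.0517). CENPF, CDC20 and TPX2 also lost theirs without NALM-6 DMSO replicate 2, and TOP2A and TPX2 without NALM-6 GSK126 replicate 1. With all probe sets fitted together TPX2 was not called, and with the probe sets of a gene averaged CENPF was not called, at -0.19 (adjusted p = 0.0595).

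**Figure D2:**
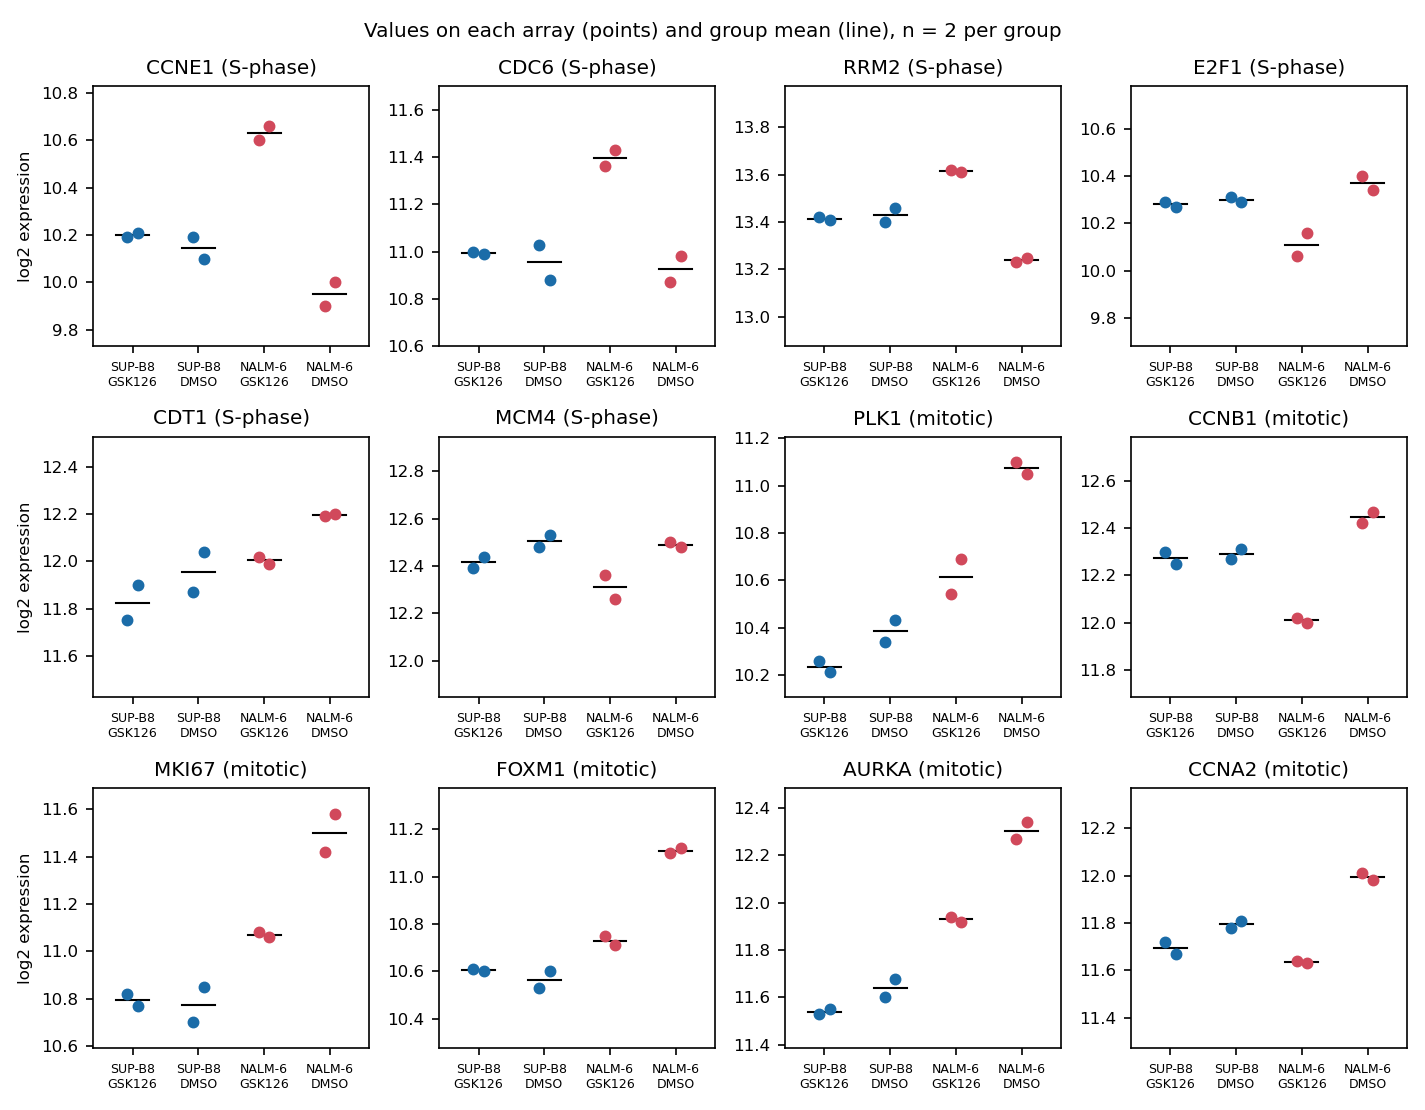
Log2 expression on each array (points) with the mean of each group (lines, n = 2) for the 6 S-phase and 6 mitotic genes of largest difference in NALM-6. In CCNE1, CDC6 and RRM2 the NALM-6 GSK126 points lie highest of the 4 groups, and in CCNB1 they lie lowest, at 12.02 and 12.00.

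Most genes with several probe sets gave the same direction on each. Of the 40 genes, 25 had more than 1 probe set. For the genes called in NALM-6, 27 of the 28 other probe sets moved in the direction of the representing one. The exception was the MKI67 probe set at 0.05. Some of these 28, of CCNE1, CCNB2, BUB1, TOP2A and CENPF, lay below the median on at least 1 array. The second probe sets of RRM2 and CDC6 gave larger rises, of 0.79 and 0.60. The 3 other probe sets of CDK1 differed by -0.33, -0.37 and -0.74, against -0.19 on the representing one. CCNE1 rested on 1 probe set, because its other one lay below the array medians and differed by 0.03.

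**Figure D3:**
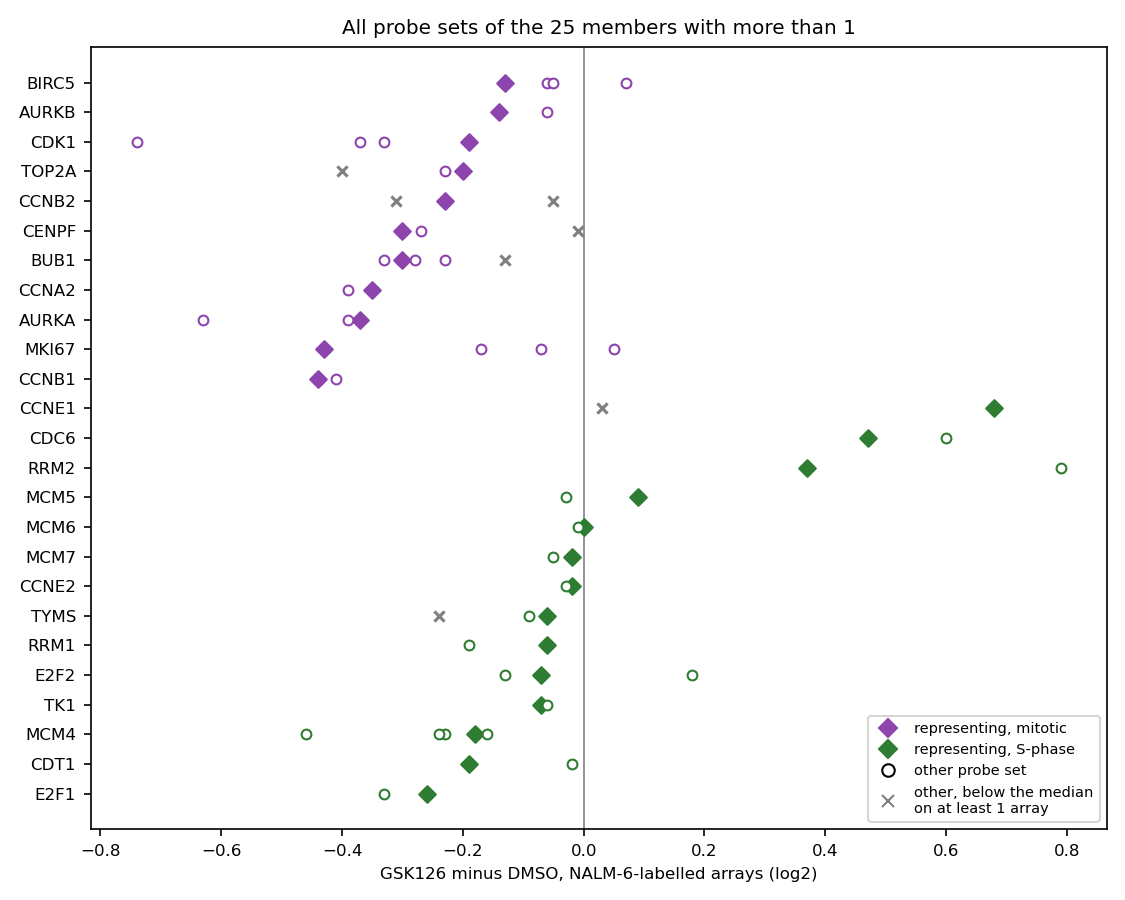
Difference between GSK126 and DMSO arrays labelled NALM-6 (log2) on every probe set of the 25 genes with more than 1; diamonds represent the gene, open circles are its other probe sets, and crosses lie below the array median on at least 1 array. The 2 probe sets of RRM2 stand at 0.37 and 0.79, and the 4 of MKI67 spread between -0.43 and 0.05.

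Sequences next to the gene starts are shown for 3 S-phase and 3 mitotic genes. CDC6 and RRM2 rose, E2F1 fell without its class, and PLK1, CCNB1 and MKI67 fell with theirs. Per class, these are the called genes of largest difference in NALM-6 that have a window with the motif of the class. That motif was an E2F form for S-phase genes and a homology region form for mitotic genes. The presence of these forms in the windows shown was therefore set by the choice. CCNE1, which rose most, was passed over because its window held no E2F form. The sequences are RefSeq sequences of the GRCh38.p14 assembly, from 250 bases before to 50 after a start, 5′ to 3′ on the strand of the gene. Capitals mark matches, on either strand, to E2F forms (TTCCCGC or TTGGCGC or TTCGCGC or TTGCCGC), to cell cycle homology region forms (TTTGAA or TTTAAA) and to the CCAAT box (CCAAT). The windows are chr17:40287629-40287928 on the plus strand for CDC6, chr2:10122318-10122617 on the plus strand for RRM2 and chr20:33686336-33686635 on the minus strand for E2F1. Those of the mitotic genes are chr16:23678639-23678938 on the plus strand for PLK1, chr5:69166900-69167199 on the plus strand for CCNB1 and chr10:128126374-128126673 on the minus strand for MKI67.
CDC6: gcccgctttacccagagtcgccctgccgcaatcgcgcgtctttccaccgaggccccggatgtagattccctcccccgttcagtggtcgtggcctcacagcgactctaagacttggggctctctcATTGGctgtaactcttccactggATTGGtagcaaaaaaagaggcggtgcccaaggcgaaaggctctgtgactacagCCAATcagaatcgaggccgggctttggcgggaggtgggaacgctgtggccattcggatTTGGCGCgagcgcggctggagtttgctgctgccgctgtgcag
RRM2: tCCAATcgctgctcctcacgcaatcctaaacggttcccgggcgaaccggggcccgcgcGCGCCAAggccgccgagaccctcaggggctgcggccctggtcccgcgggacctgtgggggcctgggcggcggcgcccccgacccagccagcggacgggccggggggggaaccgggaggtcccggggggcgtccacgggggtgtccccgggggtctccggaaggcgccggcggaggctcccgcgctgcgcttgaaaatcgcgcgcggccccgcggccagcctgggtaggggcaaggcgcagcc
E2F1: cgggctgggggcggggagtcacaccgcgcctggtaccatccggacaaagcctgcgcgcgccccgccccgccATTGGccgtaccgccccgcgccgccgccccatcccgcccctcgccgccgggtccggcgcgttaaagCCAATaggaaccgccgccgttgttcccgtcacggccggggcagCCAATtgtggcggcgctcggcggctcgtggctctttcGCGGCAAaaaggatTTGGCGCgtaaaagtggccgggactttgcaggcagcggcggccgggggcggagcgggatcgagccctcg
PLK1: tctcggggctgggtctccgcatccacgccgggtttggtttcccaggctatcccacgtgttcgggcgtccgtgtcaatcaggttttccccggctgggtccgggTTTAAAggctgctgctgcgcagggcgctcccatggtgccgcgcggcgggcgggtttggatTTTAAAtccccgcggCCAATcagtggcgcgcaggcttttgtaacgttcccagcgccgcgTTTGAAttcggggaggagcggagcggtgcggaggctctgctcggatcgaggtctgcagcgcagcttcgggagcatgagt
CCNB1: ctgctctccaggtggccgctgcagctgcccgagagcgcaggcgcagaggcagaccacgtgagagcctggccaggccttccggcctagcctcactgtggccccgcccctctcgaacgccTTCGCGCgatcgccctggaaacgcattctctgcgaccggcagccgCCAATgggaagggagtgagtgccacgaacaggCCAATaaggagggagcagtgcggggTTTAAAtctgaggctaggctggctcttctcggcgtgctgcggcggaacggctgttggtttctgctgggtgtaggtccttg
MKI67: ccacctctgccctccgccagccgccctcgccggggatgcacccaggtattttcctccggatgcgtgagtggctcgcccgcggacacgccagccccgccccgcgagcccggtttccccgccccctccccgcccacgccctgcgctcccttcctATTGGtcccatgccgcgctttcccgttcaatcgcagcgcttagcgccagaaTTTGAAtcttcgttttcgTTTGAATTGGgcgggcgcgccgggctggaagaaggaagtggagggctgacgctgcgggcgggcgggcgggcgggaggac

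In these windows CDC6 held 1 E2F form and 3 CCAAT boxes, RRM2 held 1 E2F form and 1 CCAAT box, and E2F1 held 2 E2F forms and 3 CCAAT boxes, and none of the 3 held a homology region form. RRM2 has 2 windows in the table, and the one not shown holds such a form. PLK1 held 3 homology region forms and 1 CCAAT box, and CCNB1 held 1 homology region form, 2 CCAAT boxes and 1 E2F form. MKI67 held 2 of each of the homology region forms and CCAAT boxes and no E2F form, and in 1 place a homology region form and a CCAAT box overlap.

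Over the 32 genes with a promoter window in the RefSeq table, 16 of each class, E2F forms lay near S-phase genes and homology region forms near mitotic genes. A gene was counted where any of its windows held a match. E2F forms were found for 13 of 16 S-phase genes (81.2%), against 3 of 16 mitotic genes (18.8%) and 15.3% of all 27305 genes with a window. Homology region forms were found for 13 of 16 mitotic genes (81.2%), against 5 of 16 S-phase genes (31.2%) and 27.9% of all genes. The CCAAT box was found for 14 mitotic genes (87.5%), against 10 S-phase genes (62.5%) and 39.7% of all genes. Homology region form and CCAAT box together were found for 11 mitotic genes (68.8%), against 4 S-phase genes (25%) and 12.7% of all genes. A match describes the letters of the window only.

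Within the mitotic class, 10 of the 13 genes with a homology region form fell in NALM-6, with a median difference of -0.23, and 2 of the 3 without one, with a median of -0.30. Of the 14 with a CCAAT box, 12 fell, with a median of -0.29, and of the 2 without one 0 fell, with a median of -0.15. Of the 3 with an E2F form, 3 fell, and of the 13 without one, 9. The groups without a homology region form or a CCAAT box, and the group with an E2F form, are too small to compare. In NALM-6, 18.5% of all genes tested were called lower, and 29.1% of genes at the members' levels. The window of CCNE1, the gene that rose most, held a homology region form and neither an E2F form nor a CCAAT box. Windows for AURKA, BIRC5, CCNE2, FOXM1, MCM4, MCM5, TPX2 and UBE2C were not used here.

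**Figure D4:**
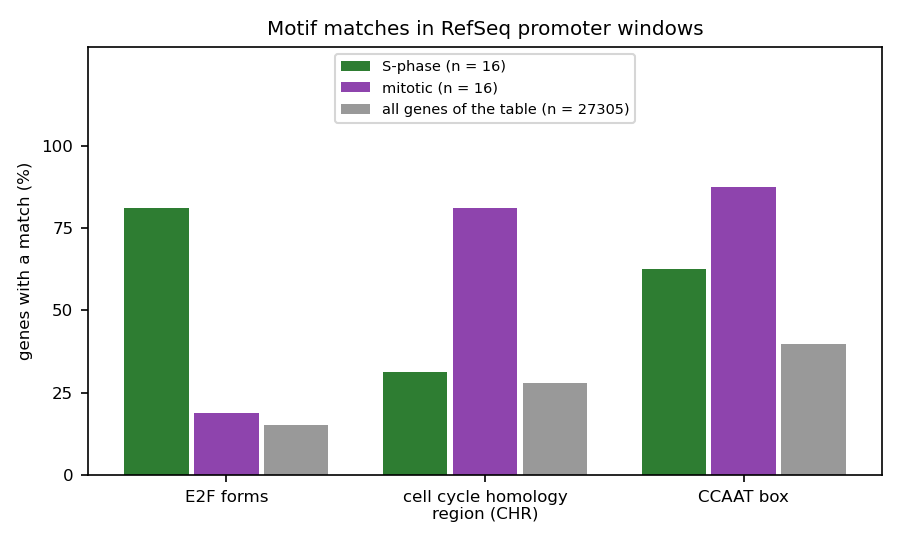
Share of genes (percent) with at least 1 match in a promoter window of 300 bases, for S-phase genes (n = 16), mitotic genes (n = 16) and all genes with a window (n = 27305). E2F forms stand at 81.2% for S-phase and 18.8% for mitotic genes, and homology region forms at 31.2% and 81.2%.

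Genes of both phases outside the list were counted in NALM-6 as well, where 20.8% of all genes tested were called higher and 18.5% lower, and 29.1% lower among genes at the members' levels. Of 47 other mitotic genes, 26 fell and 3 rose, with a median of -0.16. The largest falls were those of ANLN and ECT2, which act in cytokinesis, at -0.56 and -0.42, of TTK, a checkpoint kinase, at -0.42, and of NCAPH, a condensin subunit, at -0.41. SPC24, ESPL1 and ZWINT, the 3 that rose (by 0.37, 0.32 and 0.20), encode a kinetochore subunit, separase and a kinetochore protein, and were named after their values were seen. Of 37 other replication genes tested, 10 fell and 4 rose, with a median of -0.06, and the falls lie near the share at those levels. GINS4, a subunit of the active helicase, rose by 0.53 (adjusted p = 0.000269), while PRIM2, a primase subunit, TIPIN, of the fork protection complex, and DBF4, the activator of the kinase CDC7, fell by 0.43, 0.33 and 0.29.

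Of 22 regulators in the E2F, retinoblastoma and DREAM network, 10 fell and 1 rose, beside the same shares of 18.5% lower and 20.8% higher over all genes. The 4 largest falls were those of WEE1, the kinase that restrains CDK1, at -0.40 (adjusted p = 0.000552), E2F7, an atypical E2F repressor, at -0.37, E2F5 at -0.37 and E2F6 at -0.31, both repressor E2Fs. The gene that rose was LIN54, the DNA-binding subunit of MuvB, at 0.18 (adjusted p = 0.0219), named after its value was seen.

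In arrays labelled SUP-B8 GSK126 changed none of the 40 genes past the test. limma called 0 genes higher and 0 lower at an adjusted p under 0.05, and 0 passed an unadjusted p under 0.05. Of all 13161 genes tested, 2198 passed that unadjusted threshold. The median was -0.01 for both classes, beside -0.02 over all genes. In this line 1.91% of all genes tested were called higher and 0.334% lower. The differences ran from -0.15 for PLK1 to 0.14 for CENPF, and the most negative and most positive bounds of their 95% intervals were -0.30 and 0.29.

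The genes that led in NALM-6 lay close together here. CCNE1 read 10.19 and 10.21 on GSK126 arrays labelled SUP-B8, against 10.19 and 10.10 on DMSO arrays (difference 0.05, adjusted p = 0.691). CCNB1 read 12.30 and 12.25 with GSK126, against 12.27 and 12.31 with DMSO (difference -0.02, adjusted p = 0.882), and MKI67 read 10.82 and 10.77, against 10.70 and 10.85 (difference 0.03, adjusted p = 0.886). In these 3 genes the groups overlapped or touched. FOXM1 read 10.61 and 10.60 with GSK126, against 10.53 and 10.60 with DMSO (difference 0.04). E2F1 read 10.29 and 10.27, against 10.31 and 10.29 (difference -0.02), and MYBL2 read 11.85 and 11.81, against 11.81 and 11.87 (difference -0.01).

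The largest differences in SUP-B8 did not pass the test. PLK1 read 10.26 and 10.21 with GSK126, against 10.34 and 10.43 with DMSO (difference -0.15, adjusted p = 0.307), and CENPF read 11.44 and 11.34, against 11.21 and 11.29 (difference 0.14, adjusted p = 0.32). Both pairs of groups were separate, in opposite directions. AURKA read 11.53 and 11.55, against 11.60 and 11.68, and CCNA2 read 11.72 and 11.67, against 11.78 and 11.81, both differences of -0.10. TOP2A read 12.40 and 12.41 with GSK126, against 12.30 and 12.36 with DMSO (difference 0.08), and KIF20A read 10.61 and 10.54, against 10.61 and 10.68 (difference -0.07). Among S-phase genes CDT1 read 11.75 and 11.90, against 11.87 and 12.04 (difference -0.13), MCM4 read 12.39 and 12.44, against 12.48 and 12.53 (difference -0.09), and TK1 read 11.56 and 11.50, against 11.46 and 11.43 (difference 0.08). PCNA read 13.67 and 13.70 with GSK126, against 13.72 and 13.80 with DMSO (difference -0.07), and E2F2 read 12.22 and 12.22, against 12.33 and 12.23 (difference -0.06).

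The other lists gave 0 calls in SUP-B8 as well. An unadjusted p under 0.05 from limma was reached by 3 of 37 other replication genes, 1 of 47 other mitotic genes and 3 of 22 regulators. Over all genes tested 2198 of 13161 reached it, a larger share than in any of these lists.

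For 13 of the 21 mitotic genes the response differed between the lines. The difference of responses, SUP-B8 minus NALM-6, was positive for 21 of 21 mitotic genes with a median of 0.26, beside -0.04 over all genes. Among the S-phase genes it was called higher for E2F1 and lower for CCNE1, CDC6 and RRM2, and 15 did not pass, with a median of 0.04. For all genes tested, 10.9% were called higher and 14.5% lower, against 14 and 3 of the 40 members.

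CCNE1, CDC6 and RRM2 had responses of 0.05, 0.04 and -0.02 in SUP-B8, against 0.68, 0.47 and 0.37 in NALM-6. The differences between those responses were -0.63 ± 0.08 (adjusted p = 0.00122), -0.42 ± 0.09 (adjusted p = 0.0134) and -0.40 ± 0.07 (adjusted p = 0.00401). E2F1 had -0.02 in SUP-B8, against -0.26 in NALM-6, a difference of 0.24 ± 0.07 (adjusted p = 0.045). The call of E2F1 was lost with no filter and with all probe sets fitted together (adjusted p = 0.0928 and 0.141). It was also lost after renewed quantile normalization and with a replicate block (adjusted p = 0.0804 and 0.0721). With any 1 array left out the difference was 0.20 to 0.29 and was not called. MCM2 and PCNA, next in size among the S-phase genes, differed by 0.21 and -0.16 and did not pass (adjusted p = 0.0717 and 0.139).

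Of the mitotic genes MKI67 differed most, by 0.46 ± 0.10 (adjusted p = 0.0124), on its representing probe set. The other 3 probe sets of MKI67 differed by 0.24, 0.10 and 0.08, and when its probe sets were averaged the difference was 0.22 and was not called (adjusted p = 0.0616). CENPF had 0.14 in SUP-B8, against -0.30 in NALM-6, a difference of 0.44 ± 0.09 (adjusted p = 0.0105). CCNB1 and FOXM1 each differed by 0.42 ± 0.07 (adjusted p = 0.00357 and 0.00355), PLK1 by 0.31 (adjusted p = 0.0407) and UBE2C by 0.30 (adjusted p = 0.0197). TOP2A differed by 0.27 (adjusted p = 0.0183) and MYBL2, among the S-phase genes, by 0.09 (adjusted p = 0.394). The call of PLK1 was lost with no filter, after renewed quantile normalization and with a replicate block (adjusted p = 0.0762, 0.0608 and 0.0544). With all probe sets fitted together PLK1, UBE2C and TOP2A lost their calls (adjusted p = 0.106, 0.0721 and 0.0805). Each of these calls was also lost without certain single arrays.

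The count of 14 genes with a higher response in SUP-B8 depended on each array. It was 6 and 8 without DMSO replicate 1 and 2 of SUP-B8, and 4 and 4 without GSK126 replicate 1 and 2 of SUP-B8. It was 9 and 6 without DMSO replicate 1 and 2 of NALM-6, and 4 and 6 without GSK126 replicate 1 and 2 of NALM-6. CCNB1, CCNE1, CDC6, CENPF, FOXM1 and RRM2 were called under every alternative that was run. Outside the list, the difference was called higher for 16 and lower for 2 of 47 other mitotic genes. It was called higher for 3 and lower for 3 of 37 other replication genes, and higher for 5 and lower for 0 of 22 regulators. Over all genes tested 10.9% were called higher and 14.5% lower, and both counts of the replication genes lie below these shares.

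Without drug, the lines already differed in most of the 40 genes. Under DMSO 10 genes were higher and 23 lower in SUP-B8 than in NALM-6, where 37.8% of all genes tested were called higher and 30.6% lower. Of the 21 mitotic genes, 17 were lower, 2 were higher and 2 did not pass, with a median of -0.37. Of the 19 S-phase genes, 8 were higher, 6 lower and 5 did not pass, with a median of 0.03, beside 0.04 over all genes. This comparison and the NALM-6 response share the 2 DMSO arrays labelled NALM-6, so their values are given side by side and no relation between them is computed.

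The S-phase genes held the widest differences. CCNE2, the second cyclin E gene, read 11.37 and 11.41 on arrays labelled SUP-B8, against 9.43 and 9.54 on those labelled NALM-6, and was higher by 1.90 ± 0.06 (3.74-fold, adjusted p = 1.28e-08). E2F2, an E2F activator, read 12.33 and 12.23, against 10.74 and 10.83 in NALM-6, a difference of 1.49 ± 0.06 (2.82-fold, adjusted p = 8.54e-08). Neither gene was called in the response to GSK126 in either line. TYMS, thymidylate synthase, read 13.77 and 13.84 in SUP-B8, against 13.32 and 13.36 in NALM-6 (difference 0.46, adjusted p = 4.97e-05), and PCNA read 13.72 and 13.80, against 13.38 and 13.34 (difference 0.40, adjusted p = 0.000125).

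In the other direction, TK1, cytosolic thymidine kinase, read 11.46 and 11.43 in SUP-B8, against 12.09 and 12.10 in NALM-6 (difference -0.65 ± 0.05, adjusted p = 3.17e-06). RRM1 read 12.67 and 12.71, against 12.92 and 12.93 (difference -0.24, adjusted p = 0.00157). The salvage and the synthesis enzymes of thymidylate, TK1 and TYMS, stood on opposite sides, and so did RRM1 and RRM2, RRM2 at 0.19 (adjusted p = 0.00583). The 6 MCM subunits lay between -0.20 and 0.16, with 3 lower and 1 higher. CCNE1 and MYBL2 were higher by 0.20 and 0.22 (adjusted p = 0.0162 and 0.00291), and E2F1, at -0.08, did not pass (adjusted p = 0.22).

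Among the mitotic genes CENPA differed most. It read 10.36 and 10.33 on DMSO arrays labelled SUP-B8, against 11.34 and 11.46 on those labelled NALM-6, a difference of -1.06 ± 0.05 (0.481-fold, adjusted p = 3.72e-07). KIF20A read 10.61 and 10.68, against 11.31 and 11.40 in NALM-6 (difference -0.71, adjusted p = 7.09e-06), and PLK1 read 10.34 and 10.43, against 11.10 and 11.05 (difference -0.69, adjusted p = 1.72e-05). The groups were far apart in each.

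The aurora kinases differed alike. AURKB read 11.06 and 11.13 in SUP-B8, against 11.72 and 11.81 in NALM-6 (difference -0.67, adjusted p = 5.6e-06), and AURKA read 11.60 and 11.68, against 12.27 and 12.34 (difference -0.66, adjusted p = 5.01e-06). MKI67 read 10.70 and 10.85, against 11.42 and 11.58 (difference -0.73, adjusted p = 2.02e-05), but its other 3 probe sets differed by -0.18, -0.14 and 0.08. FOXM1, TOP2A and CCNB1 were lower by 0.54, 0.32 and 0.16 (adjusted p = 1.19e-05, 0.000264 and 0.0197). BIRC5 and CDC20 were the mitotic genes higher in SUP-B8, by 0.33 and 0.14 (adjusted p = 0.000408 and 0.0414). The call of CDC20 was lost under 12 alternatives, among them no filter (adjusted p = 0.0826), centring (adjusted p = 0.103) and the omission of any array but NALM-6 DMSO replicate 2. Of the 33 calls under DMSO, 23 held under every alternative run. When all probe sets of a gene were averaged in place of taking the brightest, CCNB1 stood at 0.07 and BIRC5 at -0.06, and neither was called.

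**Figure D5:**
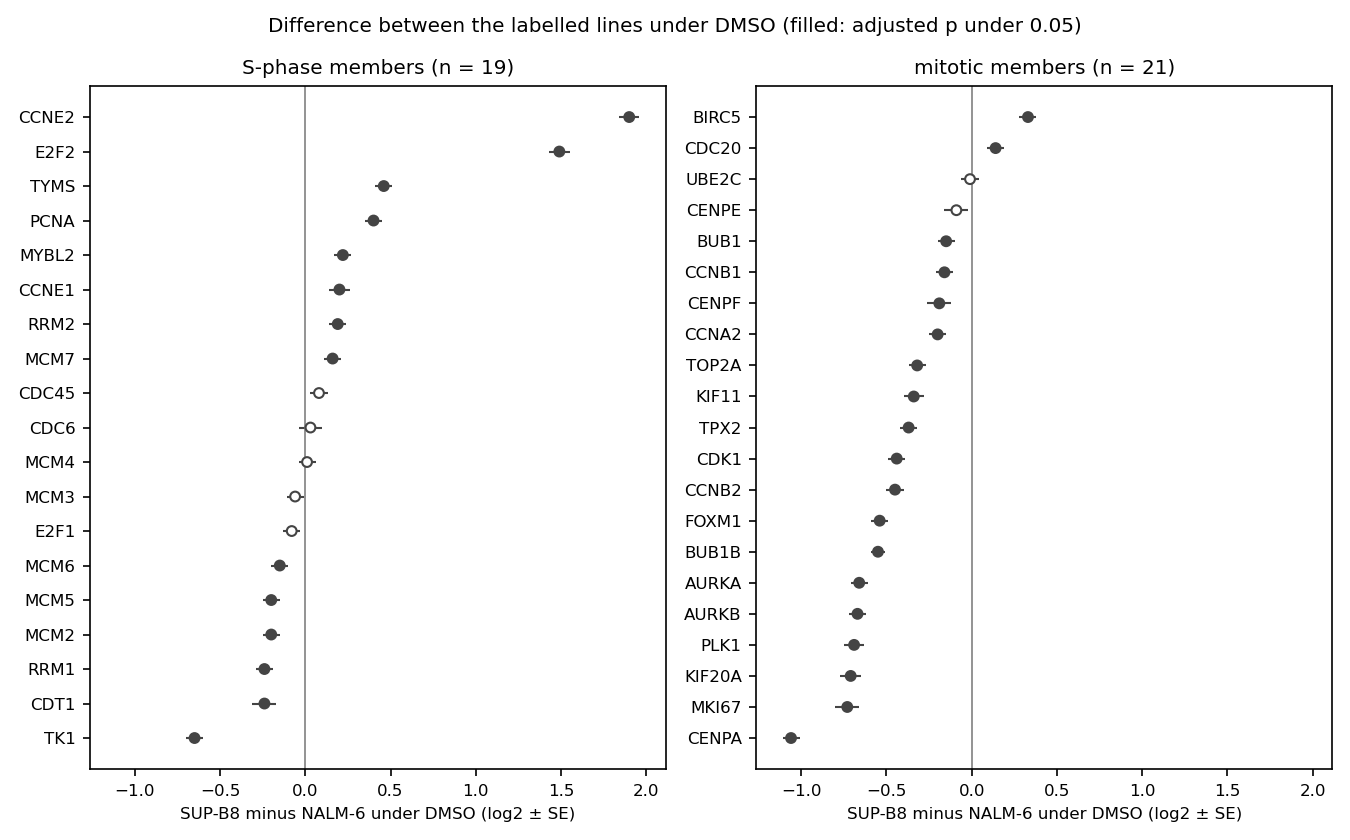
Difference between DMSO arrays labelled SUP-B8 and NALM-6 (log2, bars show the SE) for S-phase genes (left) and mitotic genes (right); filled points passed the test. CCNE2 and E2F2 stand at 1.90 and 1.49, and 19 of the 21 mitotic points lie left of 0.

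Genes outside the list were compared under DMSO too, where 37.8% of all genes tested were called higher and 30.6% lower. Of 47 other mitotic genes, 29 were lower and 9 higher in SUP-B8, with a median of -0.31, led by CDC25C, the phosphatase that activates CDK1, at -1.31, NDC80, a kinetochore subunit, at -0.98, NEK2, a centrosomal kinase, at -0.91 and KIF2C, a microtubule depolymerase, at -0.87. Of 37 other replication genes, 13 were higher and 16 lower, and the count of higher genes is near the share over all genes. UHRF1, which brings maintenance methylation to replicated DNA, was higher by 2.19 (adjusted p = 2.31e-09), GINS4 by 1.11 and FEN1, the flap endonuclease, by 1.02, and RFC2, a clamp loader subunit, was lower at -0.77.

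Of the 22 regulators, 7 were higher and 10 lower, beside 37.8% and 30.6% over all genes, and these counts are given as a description only. TFDP1, the dimer partner of the E2F factors, read 10.61 and 10.51 on DMSO arrays labelled SUP-B8, against 12.54 and 12.54 on those labelled NALM-6, a difference of -1.98 ± 0.05 (adjusted p = 8.96e-09). E2F3, an E2F activator, was higher by 1.31 and SKP2, a ubiquitin ligase subunit that targets CDK inhibitors, by 1.15. LIN37, a DREAM subunit, was lower at -1.05 (adjusted p = 2.53e-06).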

How the data were processed

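The deposited table holds 1 log2 expression value per probe set and array. MAS5 and RMA are named without role or version, per the submitters' processing notes, and the log2 scale was read from the deposited values; they were used as the authors deposited them. Of 54675 probe sets, 41097 had 1 gene symbol in the platform annotation, 1801 had several and 11777 were not listed there. Each of 19775 genes was represented by its single-symbol probe set of highest mean over the 8 arrays, and was tested if at least 2 of 8 arrays lay above the array median, which left 13161 genes.

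limma version 3.58.1 in R version 4.3.3 was fitted with 1 mean per group and 4 residual degrees of freedom, with Benjamini-Hochberg adjustment over all genes tested at 0.05. GSK126 was compared with DMSO within each line, the 2 responses with each other (SUP-B8 minus NALM-6), and the DMSO arrays between lines (SUP-B8 minus NALM-6). An exact permutation test of 2 arrays against 2 cannot give a two-sided p below 0.333. The procedure was tested on simulated data. The number of arrays limits the precision. Same-numbered arrays deviated from their group means with correlations of -0.04 to 0.13. The labels do not say whether a replicate number marks a shared culture, batch or day, and these correlations cannot decide it. The main fit therefore held no replicate block. Gene sets, members and motifs were chosen with earlier results of these data known. Values on every array are given for the 6 genes of each class with the largest difference in a contrast and for 8 fixed genes (MKI67, TOP2A, PCNA, CCNE1, CCNB1, E2F1, MYBL2 and FOXM1); from the other lists (replication genes, mitotic genes, regulators) the 4 of largest difference are named. Python version 3.11.15 searched the RefSeq promoter windows and drew the figures.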

Additional observations from a re-analysis of the deposited data

Results flagged for a closer look

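For 17 of the 40 genes the response to GSK126 in arrays labelled SUP-B8 differed from that in arrays labelled NALM-6 by limma's test of the difference itself (SUP-B8 minus NALM-6, log2). Of these 17 calls, 6 held under every alternative run, and that of E2F1 was not among them. The difference was negative for CCNE1 at -0.63, CDC6 at -0.42 and RRM2 at -0.40, and positive for E2F1 at 0.24. Among CDK1 and its cyclins it was 0.22 for CDK1, 0.26 for CCNA2 and 0.42 for CCNB1. Among the mitotic kinases it was 0.31 for PLK1, 0.27 for AURKA and 0.23 for BUB1. The remaining mitotic genes were UBE2C at 0.30, TOP2A at 0.27, MKI67 at 0.46, KIF20A at 0.27, CENPA at 0.28, CENPF at 0.44 and FOXM1 at 0.42.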

How the results depend on the processing

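The 0 calls among the 40 genes in SUP-B8 held under all alternatives run (filter, choice of probe set, normalization, centring, variance prior, arrays in the fit, replicate block and omission of each array). In NALM-6, 15 of 22 calls held under all. Leaving out 1 array each, the genes called in NALM-6 were 3 higher and 12 to 20 lower, 12 without GSK126 replicate 2, and the medians were -0.07 to -0.03 for S-phase and -0.30 to -0.22 for mitotic genes. In SUP-B8 the mitotic median was -0.05 to 0.02. For the difference of responses 4 to 9 genes were higher, with a mitotic median of 0.22 to 0.27. Under DMSO the medians were 0.02 to 0.08 for S-phase and -0.42 to -0.31 for mitotic genes. Renewed quantile normalization gave 5 genes higher in NALM-6 (CDC45 and MCM5 added) and medians of -0.02 for S-phase and -0.23 for mitotic genes; the mitotic median was also -0.23 without CCNA2 and FOXM1. For the difference of responses 6 genes were higher with no filter and 4 with all probe sets fitted together, and centring gave medians of 0.08 for S-phase and 0.30 for mitotic genes. Under DMSO, averaging all probe sets of a gene turned CCNB1 to 0.07 and BIRC5 to -0.06. The cause of these shifts was not tested. Fitting the arrays of the contrast alone was not possible for the difference of responses, which uses all 8.

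Whether the replicate numbers pair the arrays is not stated in the labels. With a replicate block, 9 genes had a higher difference of responses, against 14 without it.

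With 2 arrays per group, small differences were at the limit of the test, and that limit varied with the contrast. In NALM-6, MCM2 at -0.16 was called, while CENPE at -0.16 and CDT1 at -0.19 were not. In SUP-B8 a larger difference, that of LIN9 at -0.23, was not called (adjusted p = 0.198). For the difference of responses CDC20 at 0.22 was not called (adjusted p = 0.0605).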

Other observations

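Some genes had probe sets that differed under DMSO by more than their SE. For BIRC5, which encodes survivin, 3 probe sets were higher in SUP-B8 by 0.33, 0.41 and 0.42, while the fourth had a mean of 8.37 ± 0.09 in SUP-B8 and 9.77 ± 0.10 in NALM-6 (SD, n = 2) and differed by -1.39. The second probe set of CDT1 differed by -0.88, against -0.24 on the representing one, and that of RRM1 by -0.60, against -0.24. The second probe set of RRM2 differed by 0.98, against 0.19. For CCNB1 the representing probe set differed by -0.16 and the other by 0.30. Which transcripts each probe set reads was not examined here.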
